A study of Mus musculus with 6 samples.

Results

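Bronchioalveolar stem cells (BASC) of the mouse lung were compared with the point halfway between alveolar type 2 (AT2) cells and Club cells, and the genes in which BASC lay outside both populations were described. For each gene the mean of log2(value + 1) in the 2 BASC samples was set against the average of the AT2 mean and the Club mean, 2 samples each. A gene counted as above the range where both BASC values exceeded all 4 AT2 and Club values, and as below the range where both were under all 4. Of 22239 genes in the deposited table, 17721 had a value of at least 10 in at least 2 samples and were examined. Among these, 1102 genes (6.22%) were above the range and 1161 (6.55%) were below it, 2263 (12.8%) together. Spread between samples alone can place 2 of them outside the other 4, and the share to be reached that way was not computed. The counts therefore do not mark a set of genes particular to BASC.

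All 3 populations were primary epithelial cells of mice aged 8 weeks that carried reporters for the Club cell gene Scgb1a1 (CCSP-mCherry) and the AT2 gene Sftpc (SPC-YFP). BASC were labelled as positive for both reporters, AT2 cells as the SPC-YFP population and Club cells as the CCSP-mCherry population. Homogenised lungs were first cleared of CD31 and CD45 cells, that is of endothelial and blood cells, and the populations were then sorted by flow cytometry. Total RNA of 100 pg per library went into a stranded kit for very small inputs. The labels do not state that the 2 samples of a population came from separate mice, so each p-value reflects only how far these samples spread. A reporter-defined gate sets what each population is, and in bulk RNA a change in the share of cells that express a gene cannot be told apart from a change in the RNA per cell.

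AT2 cells line the alveoli, make surfactant and renew the alveolar epithelium, and Club cells are secretory cells of the bronchioles that detoxify inhaled compounds. BASC sit where the bronchiole meets the alveolar duct, carry markers of both, and can give rise to both lineages after injury.

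The estimated number of reads per sample over the genes in the table was between 10122640 and 18205636, and ribosomal RNA genes held between 17.1% and 21.1% of the values. In normalised counts, Sftpc read 290809 and 307458 in BASC against 301267 and 373742 in the AT2 samples and 240 and 224 in Club cells. Scgb1a1 read 43993 and 58791 in BASC, while AT2 samples had 413 and 302 and Club samples 751642 and 760675. Both reporter genes followed the sort labels, and BASC lay inside the range in each. The endothelial markers in the table summed to 747 and 587 (BASC), 66 and 40 (AT2) and 5599 and 5953 (Club), of which Kdr read 689 and 517 in BASC, with 1 and 0 for AT2 and 5510 and 5892 for Club cells. Kdr thus made up most of the sums in BASC and Club cells. Pecam1, which encodes CD31, read 9 and 15 in BASC, with 27 and 7 for AT2 and 3 and 6 for Club cells. Vwf read 15 and 2, 0 and 0, and 63 and 32 in the same order. The blood cell markers in the table summed to 395 and 422 in BASC against 294 and 442 in the AT2 samples and 163 and 221 in Club cells, so BASC and AT2 overlapped, and 9 of the 13 listed blood cell markers had no row.

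BASC stood outside the others in fewer genes than either neighbour did. AT2 cells were above all BASC and Club values in 2132 genes (12%) and below them in 2115 (11.9%). Club cells were above all BASC and AT2 values in 3632 genes (20.5%) and below them in 2736 (15.4%). These counts are descriptions of the 6 samples with no test of the difference.

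Most genes outside the range were only just outside it. The gap, defined as the log2 distance from the nearer BASC value to the nearest AT2 or Club value, had a median of 0.228 above the range and 0.262 below it. It was under 0.1 in 305 genes above and 302 below, and it reached 1, a 2-fold distance, in 125 genes above and 216 below. The nearest sample belonged to AT2 for 590 and to Club cells for 485 of the genes above, and for 661 and 481 of the genes below. At the edge of the rule, Mgat2, an enzyme of N-glycan synthesis, read 549 and 561 in BASC against a highest other value of 548 and counted as above. Rab1a, a small GTPase of transport from the endoplasmic reticulum to the Golgi, read 1949 and 2267 against a highest other value of 1952 and did not.

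The gap was wide chiefly where values were low. Among 4851 genes with a mean under 30 normalised counts the median gap was 0.585 above and 1 below, and among 2220 genes with a mean over 1000 it was 0.103 and 0.0634. The share of genes above was between 5.74% and 7.16% over the 5 levels of expression, and the share below was between 4.5% and 7.75%. Of the genes above, 102 reached the filter of 10 only in the 2 BASC samples, so they had to be above the range. In 90 genes below, both BASC samples were listed at 0.

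**Figure D1:**
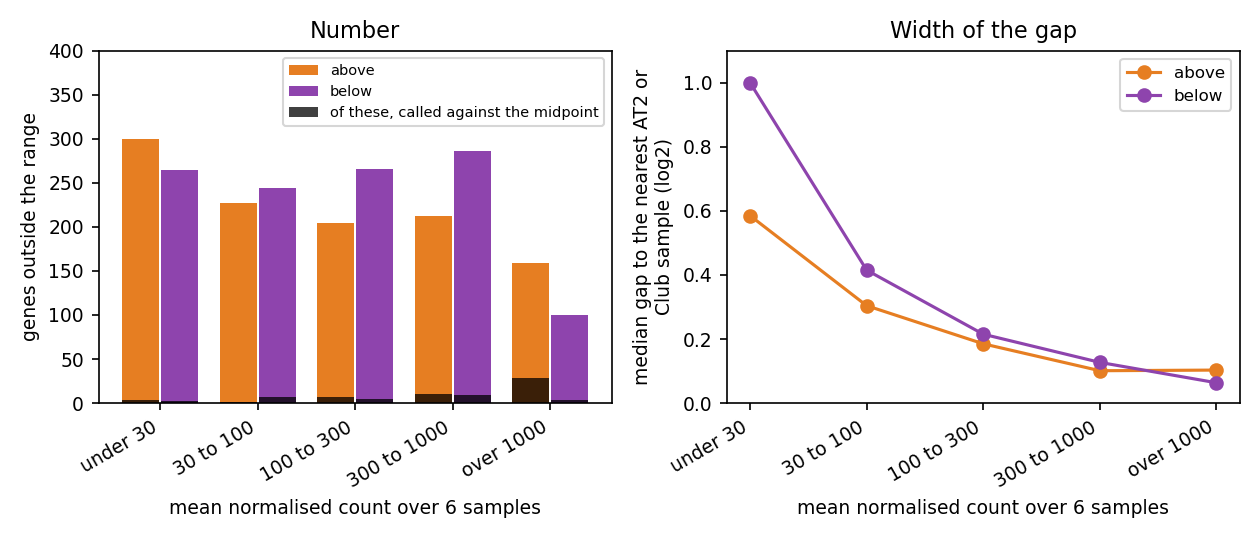
Number of genes outside the AT2 and Club range (left) and median gap in log2 units to the nearest AT2 or Club sample (right), by the mean normalised count over 6 samples. Orange stands for genes above, purple for genes below and black for the genes that also passed the midpoint test. The gap narrows from 0.585 and 1 at the lowest level to 0.103 and 0.0634 at the highest, where 29 of the 159 genes above passed the test.

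In the test against the midpoint, 229 genes were higher in BASC (1.29% of those tested) and 57 were lower (0.322%), 286 together (1.61%), by limma with an adjusted p under 0.05. At an unadjusted p under 0.05 the counts were 1305 and 1372. Most calls were of genes inside the range, in which AT2 and Club cells themselves differed; these 2 populations were called apart in 3212 genes (18.1%). Of the 229 higher genes, 51 were above the range and 178 were inside it, and AT2 cells were called over Club cells in 166 of those 178. Among the 57 lower genes, 26 were below the range and 31 were inside it, all 31 with Club cells called over AT2. A log midpoint lies under the midpoint of unlogged values, and 25 of the 229 higher genes had both BASC values below that unlogged midpoint. Scgb1a1 shows the difference, since it was 1.64 ± 0.16 (log2, SE) above the log midpoint although both BASC values were far below the Club values.

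The 77 genes that were both outside the range and called against the midpoint were mostly close to AT2 cells. Of the 51 above, AT2 was the nearest population for 43 and Club for 4, all 51 were called over Club cells, and 4 were called over AT2. The 51 include Slc2a3, Olfm4, Vstm2b, Grin2b, 9530003J23Rik and Map4k1, which reached the filter only in BASC and so had to be above. For Olfm4, Vstm2b, Grin2b and Map4k1 neither population was nearer. Of the 26 below, AT2 was nearest for 23 and Club for 3, all 26 were called under Club cells, and 1 was called under AT2. Over all genes tested, 98 (0.553%) were called higher and 14 (0.0790%) lower in BASC than in AT2, and 1022 (5.77%) and 961 (5.42%) than in Club cells. The range and the test rest on the same 6 samples, so being called is no independent support for a position outside the range. With either BASC sample left out, none of the 77 was called and 4 genes in all were higher than the midpoint. Of the 77 genes, 21 and 23 were still called without AT2 replicate 1 and 2, and 47 and 46 without Club replicate 1 and 2.

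**Figure D2:**
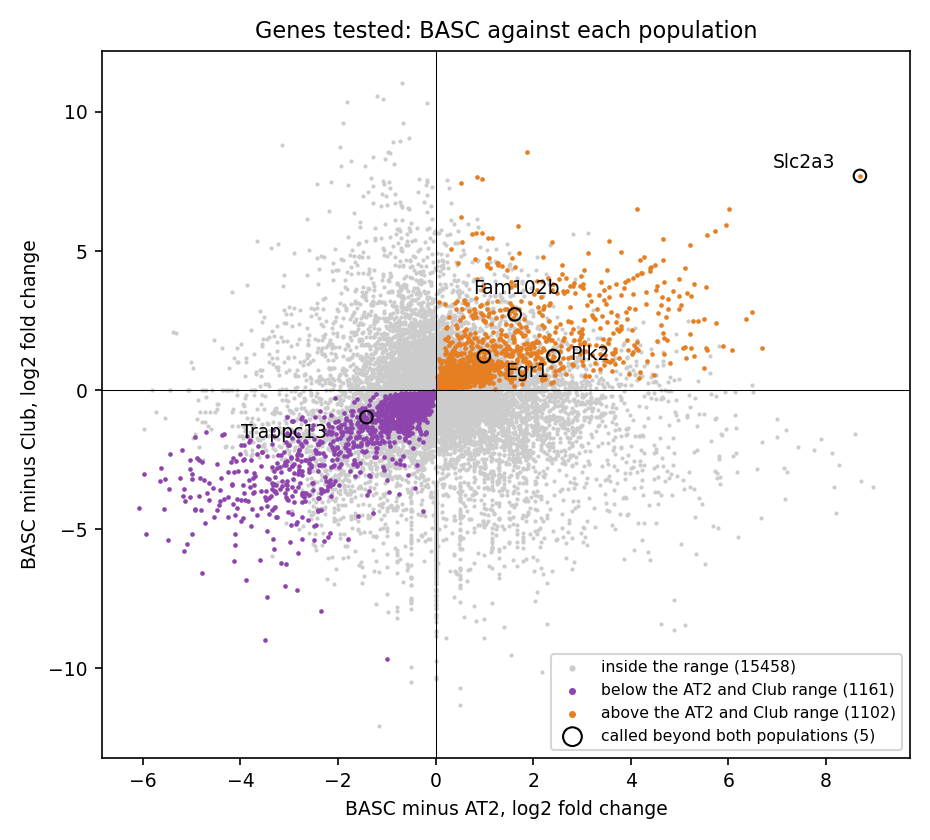
Each point is 1 of the tested genes, placed by its fitted log2 fold change of BASC over AT2 (horizontal) and of BASC over Club cells (vertical). Orange and purple points are the 1102 genes above and the 1161 genes below the range, and the 5 circled genes passed the test against both populations, with Slc2a3 farthest from the origin.

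A total of 5 genes passed the test against both populations in the same direction. Slc2a3, Plk2, Fam102b and Egr1 were higher than both (0.0226% of genes tested) and Trappc13 was lower than both (0.00564%). At an unadjusted p under 0.05 in both contrasts the counts were 152 and 240.

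Slc2a3 encodes GLUT3, a high-affinity glucose transporter best known from neurons, and lies at chr6:122727809-122742745 (mm10, minus strand, protein coding). It read 494 and 349 in BASC, while AT2 samples had 0 and 0 and Club samples 3 and 0. Slc2a3 is 1 of the 102 genes that passed the filter only through BASC and so had to be above the range. Its transcript was found in both BASC samples and was at or near the floor in the other 4. Set against a floor of 3 reads per library, BASC were at least 153-fold higher than AT2. The adjusted p was 0.0273 against AT2 and 0.0065 against Club cells, and the call over both was lost without either AT2 sample and without Club replicate 2. Without a BASC sample Slc2a3 did not pass the filter. Among the 18 glycolysis and glucose uptake genes tested, Slc2a3 was the only one above the range, while Hk1 and Tpi1, which encode hexokinase 1 and triosephosphate isomerase, were below it. These shares were 5.56% and 11.1%, against 6.22% and 6.55% of all genes. Tpi1 read 376 and 432 in BASC, with 615 and 519 for AT2 and 669 and 563 for Club cells, and was not called (adjusted p = 0.238, limma).

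Plk2, a polo-like kinase first described as induced by serum, lies at chr13:110395046-110400844 (mm10, plus strand, protein coding). It read 7410 and 7851 in BASC against 1288 and 1585 in the AT2 samples and 3195 and 3311 in Club cells. The BASC samples were the highest, Club cells came next and AT2 cells were lowest, with no overlap between populations. The difference from the midpoint was 1.82 ± 0.12 (log2, SE, limma adjusted p = 0.000903), with adjusted p-values of 0.0007 against AT2 and 0.00167 against Club cells.

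Fam102b lies at chr3:108970997-109027607 (mm10, minus strand, protein coding). It read 3557 and 4153 in BASC, while AT2 samples had 1136 and 1369 and Club samples 607 and 555. Here AT2 cells were the nearer population, and the difference from the midpoint was 2.17 ± 0.14 (log2, SE, limma adjusted p = 0.000909). Trappc13, at chr13:104142149-104178469 (mm10, minus strand, protein coding), encodes a subunit of the TRAPP complex, which tethers vesicles in the secretory pathway. It read 238 and 245 in BASC, with 699 and 599 for AT2 and 461 and 487 for Club cells. Without either BASC sample, neither Plk2 nor Fam102b kept its call against both populations. For Trappc13, BASC were the lowest samples, 1.19 below the midpoint on average (log2 difference of -1.19 ± 0.19, SE, limma adjusted p = 0.0283). Its adjusted p against AT2 was 0.0433, and the call against both populations was lost in all 6 fits that left out 1 sample.

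**Figure D3:**
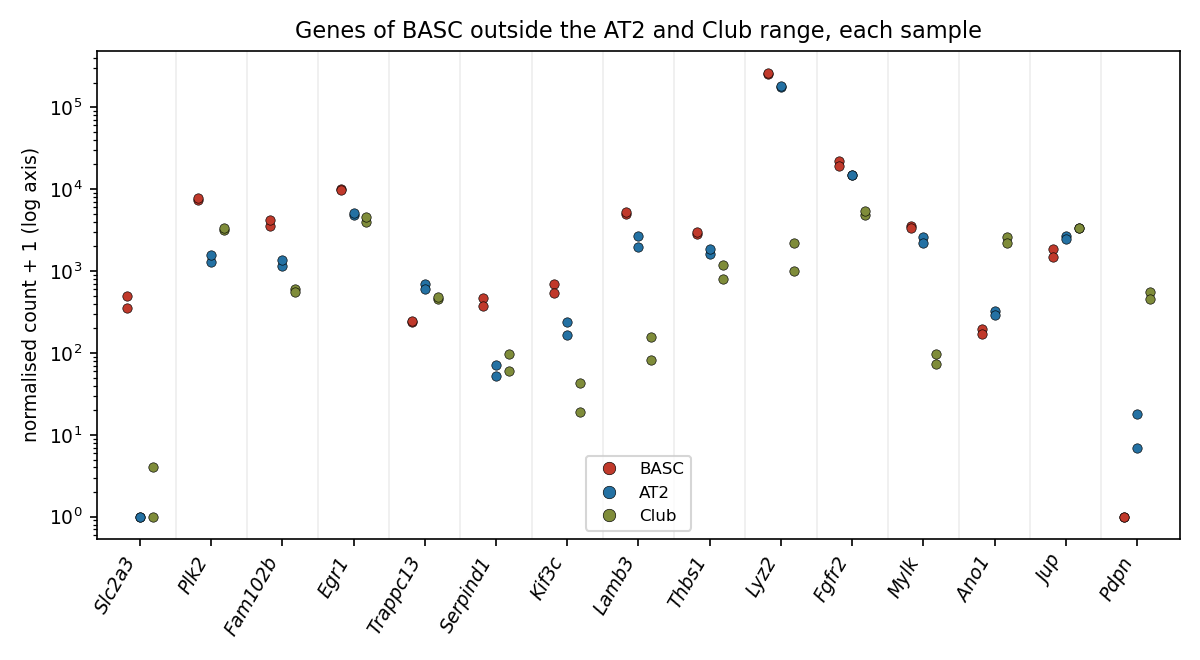
Normalised count plus 1 of 15 genes outside the range in each of the 6 samples, on a log axis. Red points are BASC, blue AT2 and green Club cells. Plk2, Fam102b and Egr1 have both BASC samples above every other point, Trappc13 has them below, and in Lyz2, Fgfr2 and Mylk the BASC samples sit just over AT2 and far over Club cells.

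Immediate-early genes had the largest share above the range of the lists with at least 10 tested members. These genes encode transcription factors and feedback regulators whose transcription starts within minutes of growth factor, stretch or stress signals without new protein synthesis. Of 27 members tested, 12 (44.4%) were above the range, 1 (3.70%) was below and 14 were inside. Of all genes, 6.22% were above and 6.55% below. The median difference from the midpoint was 0.413 over the list and -0.00506 over all genes tested. At an unadjusted p under 0.05, 16 of 27 members (59.3%) were higher than the midpoint, against 7.36% of all genes. After adjustment over all genes 1 member, Egr1, was called. The list was chosen with earlier results of these data known, so its count is a description.

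Egr1, a zinc finger transcription factor that growth factors induce, read 10021 and 9739 in BASC against 4824 and 5121 in the AT2 samples and 3984 and 4517 in Club cells. BASC exceeded the highest other sample 1.9-fold at the nearer value, the widest ratio of the 12 members above. The difference from the midpoint was 1.1 ± 0.09 (log2, SE, limma adjusted p = 0.0029). The call against both populations was lost without either BASC sample and without either AT2 sample. Its relative Egr2 read 114 and 127 in BASC, while AT2 samples had 29 and 94 and Club samples 42 and 27, and missed the threshold (adjusted p = 0.339).

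Of the AP-1 subunits, which pair to bind DNA as dimers, Fos, Fosb, Jun and Junb were above the range and none was called. Fos read 17128 and 18231 in BASC, with 8174 and 11781 for AT2 and 11589 and 12563 for Club cells. Junb read 6543 and 6898 in BASC against 3720 and 5187 in the AT2 samples and 3961 and 3714 in Club cells. Jun was above by a ratio of 1.07 at the nearest values, and the 4 adjusted p-values were between 0.0715 and 0.202. Fosl1 went the other way, with 16 and 13 in BASC, while AT2 samples had 72 and 32 and Club samples 56 and 64, and Fosl2 and Jund were inside the range.

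Among the Krüppel-like factors, Klf2 read 1786 and 2167 in BASC, with 879 and 1354 for AT2 and 568 and 770 for Club cells (adjusted p = 0.0516, limma). Klf4 read 3151 and 4232 in BASC against 1853 and 2758 in the AT2 samples and 2406 and 1793 in Club cells (adjusted p = 0.170). The stress factor Atf3 read 5004 and 5396 in BASC against a highest other value of 4108. Ier2, Ier5 and the antiproliferative gene Btg2 were above by nearest ratios of 1.07, 1.07 and 1.08. The 14 members inside the range included Nr4a1, Dusp1, Myc, Socs3 and Zfp36. Counted by sign alone, 25 of the 27 members had a BASC mean over the midpoint.

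Expression level and other stress programmes were measured beside this result. Of the 27 immediate-early genes, 20 had a mean of at least 1000, and 11 of the 12 above were among them, while 7.16% of all genes at that level were above the range. Heat shock genes were above the range in 1 of 14, unfolded protein response genes in 0 of 16, and p53 targets in 0 of 11. The part of expression level in the result was not tested. Rescaling of the samples left between 11 and 12 members above the range, and leaving out 1 sample left between 12 and 17. A member above the range stays above it when 1 sample is left out. That second count could therefore only hold or rise, and it does not measure how stable the result is.

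**Figure D4:**
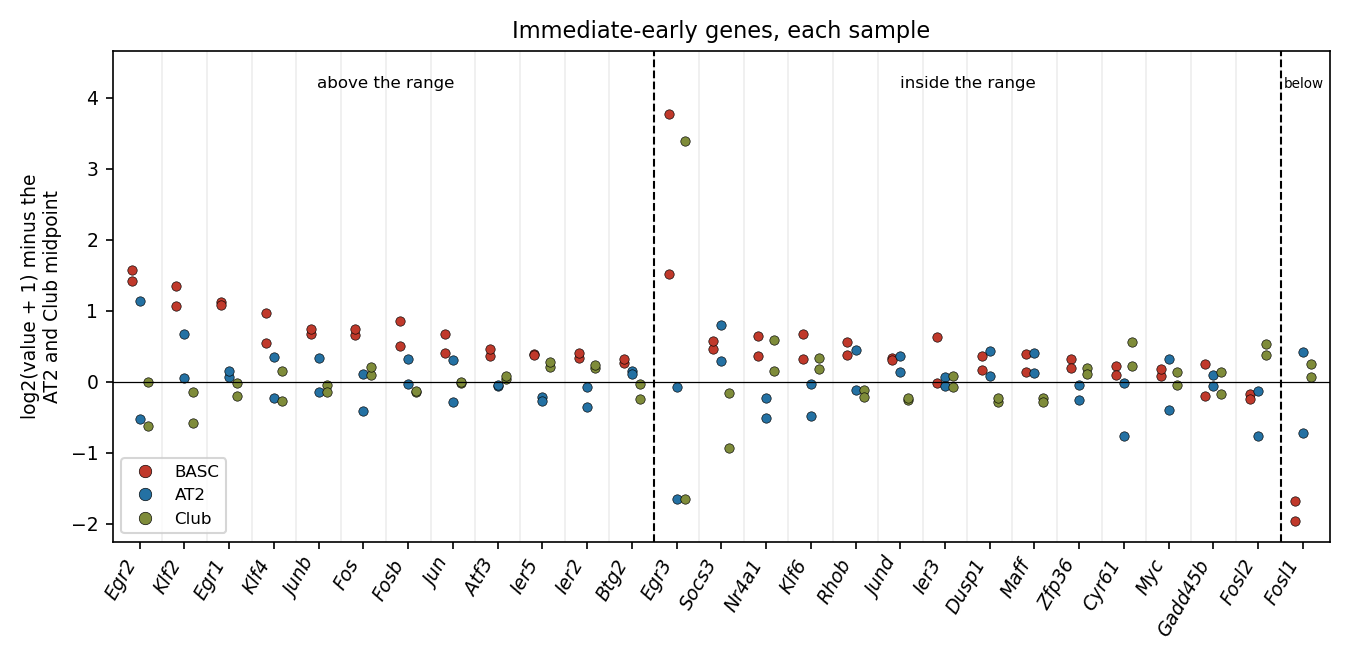
log2(value + 1) of 27 immediate-early genes in each sample, minus the midpoint of AT2 and Club cells, which is drawn as the line at 0. Dashed lines separate the 12 genes above the range, the 14 inside and Fosl1 below. Both red BASC points lie over every blue AT2 and green Club point in the left block, by a narrow margin in Ier2, Ier5 and Btg2.

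Promoters of these members were read from RefSeq (GRCm38.p6) to show which hold the exact letter patterns of 4 known response elements. Windows of 250 bases before to 50 after the transcription start were searched on both strands for the cyclic AMP response element (CRE, TGACGTCA), the AP-1 site (TGANTCA), the EGR site (GCGGGGGCG or GCGTGGGCG) and the CArG box bound by serum response factor. Of all 32851 promoters, 1.79% held the CRE, 7.81% the AP-1 site, 3.47% the EGR site and 1.63% the CArG box. Of the 12 immediate-early genes above the range 10 were searched, and Egr1 and Ier2 were not. The 10 promoters searched included 1 with a CRE, 0 with an AP-1 site, 3 with an EGR site and 1 with a CArG box. These counts therefore leave out Egr1, the only member called, and say nothing about its promoter. Of the 15 not above, 11 were searched, of which 2 held a CRE, 0 an AP-1 site, 5 an EGR site and 1 a CArG box. The promoters of Fam102b and Trappc13 held none of the 4. A match is a description of the letters and shows no binding. Only exact patterns within the window were counted, so a promoter without a match may still hold a variant or a more distant element.

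The 250 bases before the start of 4 genes are shown 5' to 3' because each holds 1 of the elements, which stands in capitals. Plk2 (chr13:110394794-110395043, plus strand) and Btg2 (chr1:134079156-134079405, minus strand) hold a CRE whose first base lies 62 and 166 bases before the start. Egr2 (chr10:67537620-67537869, plus strand) holds a CArG box at 73 bases and Fosb (chr7:19310046-19310295, minus strand) an EGR site at 50 bases before the start.
Plk2: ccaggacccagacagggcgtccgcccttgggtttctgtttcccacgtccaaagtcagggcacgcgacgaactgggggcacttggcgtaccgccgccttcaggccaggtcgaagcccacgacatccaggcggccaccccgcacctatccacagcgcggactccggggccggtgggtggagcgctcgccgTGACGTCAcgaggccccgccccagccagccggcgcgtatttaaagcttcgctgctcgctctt
Btg2: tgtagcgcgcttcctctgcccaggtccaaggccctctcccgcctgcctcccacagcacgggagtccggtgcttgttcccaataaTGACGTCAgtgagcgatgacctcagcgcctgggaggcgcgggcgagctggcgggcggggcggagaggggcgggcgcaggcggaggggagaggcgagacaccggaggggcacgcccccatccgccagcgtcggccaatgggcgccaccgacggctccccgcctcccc
Egr2: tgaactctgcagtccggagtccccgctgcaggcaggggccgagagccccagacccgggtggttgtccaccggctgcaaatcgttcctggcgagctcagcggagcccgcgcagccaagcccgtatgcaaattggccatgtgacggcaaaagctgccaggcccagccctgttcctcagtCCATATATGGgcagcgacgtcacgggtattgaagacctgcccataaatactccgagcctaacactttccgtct
Fosb: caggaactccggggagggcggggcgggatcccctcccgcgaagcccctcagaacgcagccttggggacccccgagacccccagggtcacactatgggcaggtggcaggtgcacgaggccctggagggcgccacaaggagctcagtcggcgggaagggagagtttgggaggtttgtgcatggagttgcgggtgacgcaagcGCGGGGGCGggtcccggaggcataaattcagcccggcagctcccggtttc
The promoter of Plk2, a gene called over both populations, and that of Btg2, with a nearest ratio of 1.08, thus share the same 8 letters.

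Cytokine and inflammatory genes were the list with the next largest share. Of 14 NF-kB targets and cytokines tested, 5 (35.7%) were above the range and 0 below, against 6.22% and 6.55% of all genes. The median difference was 0.526. Csf2, which encodes the growth factor GM-CSF that alveolar macrophages need, read 253 and 557 in BASC, while AT2 samples had 76 and 135 and Club samples 0 and 0. It was called against the midpoint (5.22 ± 0.74, log2, SE, limma adjusted p = 0.021) and over Club cells, at least 145-fold against a floor of 3 reads, and not over AT2 (adjusted p = 0.408). The chemokine gene Cxcl2 read 32 and 13 in BASC and 0 in each of the other 4 samples. Cxcl1 read 150 and 86 in BASC, with 3 and 75 for AT2 and 14 and 27 for Club cells, so its spread was wide. Cxcl2 passed the filter only through the BASC samples, so it had to be above and adds to the share by construction. Nfkbia, the inhibitor that NF-kB induces, and Relb were above by nearest ratios of 1.08 and 1.03.

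Cytokine receptors were also among the members. Il1r1, the receptor for interleukin-1, read 1352 and 1282 in BASC against 733 and 390 in the AT2 samples and 317 and 422 in Club cells, and was called against the midpoint (1.57 ± 0.27, log2, SE, limma adjusted p = 0.0409). Il18rap, a subunit of the interleukin-18 receptor, read 268 and 331 in BASC, while AT2 samples had 79 and 126 and Club samples 66 and 37 (adjusted p = 0.0843). Cd83, a surface protein known from activated dendritic cells, read 224 and 331 in BASC, with 151 and 129 for AT2 and 1 and 0 for Club cells. Beside these genes, the summed blood cell markers in BASC (395 and 422) lay inside the AT2 values (294 and 442) and over the Club values (163 and 221). Cd68 read 234 and 274 (BASC), 236 and 280 (AT2) and 114 and 132 (Club). The part of blood cells in these differences was not tested.

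Splicing and RNA-binding genes were above the range in 6 of 20 (30%) and below in 0, but the shifts were small and limma called 0 of them, with 5 higher at an unadjusted p under 0.05. Hnrnpa1, an abundant splicing repressor, read 2178 and 2549 in BASC against 1585 and 1677 in the AT2 samples and 1343 and 1648 in Club cells (adjusted p = 0.106, limma). Clk4, a kinase of splicing factors, read 1459 and 1401 in BASC, while AT2 samples had 1177 and 987 and Club samples 961 and 1126. For Ddx5, Hnrnph1, Tra2b and Clk1 the ratio at the nearest values was at most 1.06. Ribosomal protein genes had 1 of 22 above (4.55%) and 4 below (18.2%), against 6.22% and 6.55% of all genes. Rplp0 read 3882 and 3887 in BASC against a lowest other value of 3969 and was below.

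**Figure D5:**
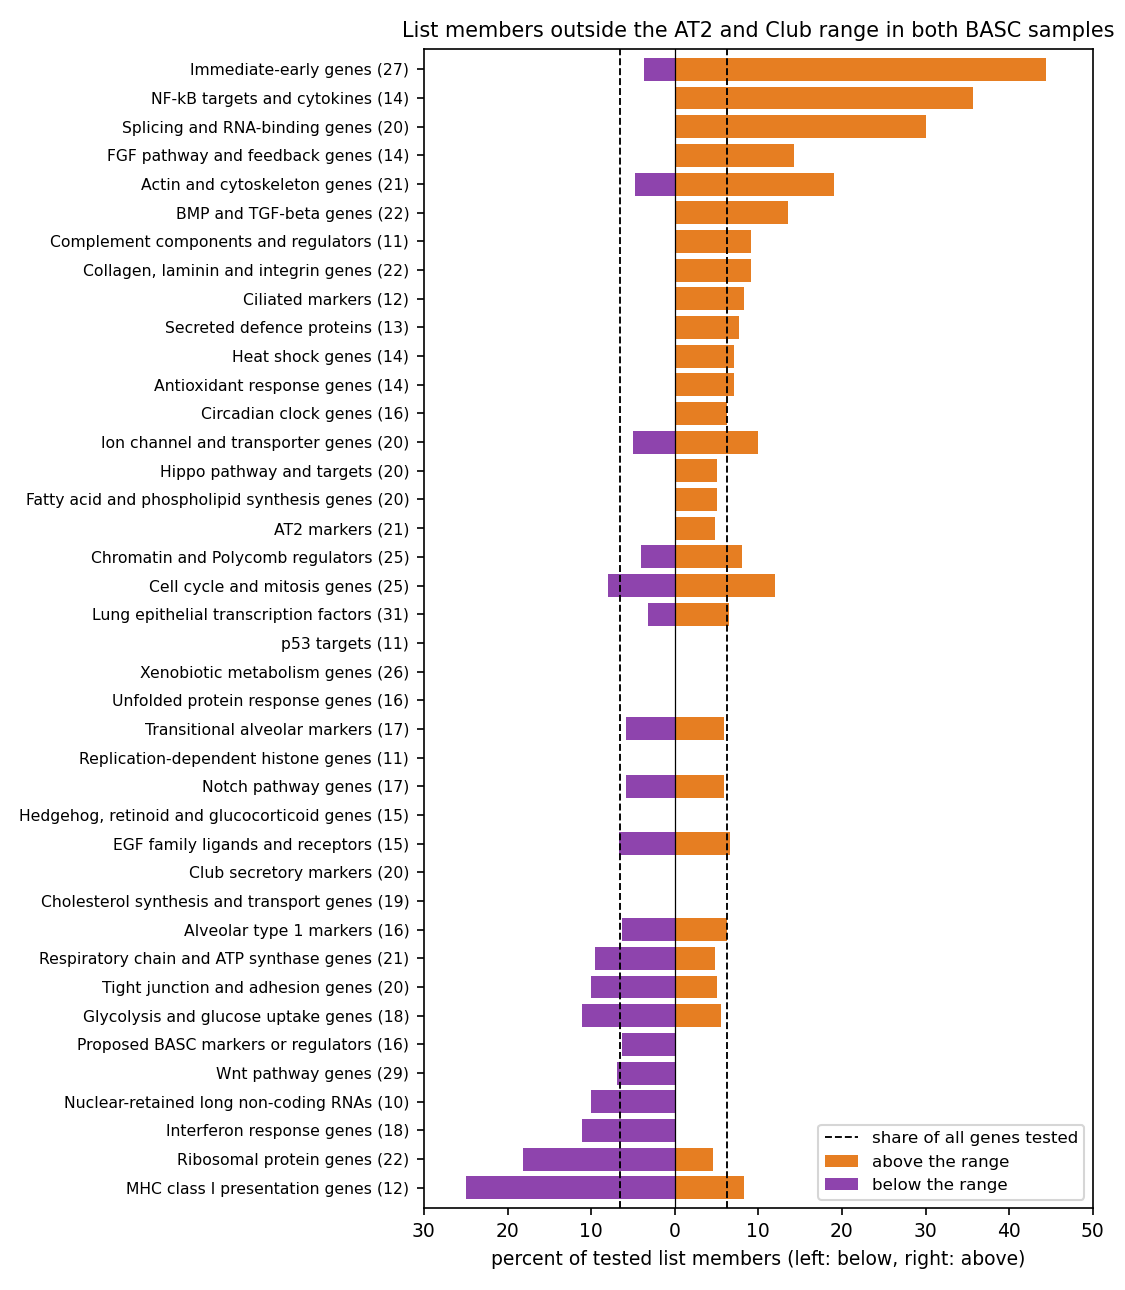
Percentage of tested members above (orange, right) and below (purple, left) the AT2 and Club range for each list with at least 10 tested members, whose number is in brackets. Dashed lines mark the shares of all genes tested, 6.22% and 6.55%. Immediate-early, NF-kB and splicing genes have the longest bars above at 44.4%, 35.7% and 30%, and MHC class I genes have the longest below at 25.0%.

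Of 22 collagen, laminin and integrin genes, 2 (9.09%, near the 6.22% of all genes) were above the range, namely Lamb3 and Itga3. Below it were 0, against 6.55% of all genes. Lamb3, the beta-3 chain of laminin-332 in epithelial basement membranes, read 4909 and 5302 in BASC, with 1938 and 2711 for AT2 and 81 and 157 for Club cells. It was 3.32 ± 0.27 above the midpoint (log2, SE, limma adjusted p = 0.00246), and BASC exceeded the highest AT2 value 1.81-fold at the nearer value. Thbs1, the matrix glycoprotein thrombospondin-1, read 2843 and 2977 in BASC against 1635 and 1884 in the AT2 samples and 803 and 1169 in Club cells.

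Of 21 actin and cytoskeleton genes, 4 (19.0%) were above and 1 (4.76%) below, against 6.22% and 6.55% of all genes. Flna, which crosslinks actin filaments, read 3432 and 4088 in BASC, while AT2 samples had 2824 and 3033 and Club samples 1466 and 1283. It was called against the midpoint (adjusted p = 0.0187, limma). Actb, Actg1 and Ezr were above without a call, and Myh9 was below without a call. Mylk, the myosin light chain kinase, read 3592 and 3322 in BASC, with 2570 and 2199 for AT2 and 97 and 73 for Club cells. Kif3c, a kinesin motor subunit, read 698 and 537 in BASC against 237 and 164 in the AT2 samples and 18 and 42 in Club cells. Mylk and Kif3c were also called against the midpoint. None of the called genes Lamb3, Thbs1, Flna, Mylk and Kif3c was called over AT2.

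Of 21 AT2 markers 19 were called over the midpoint, against 1.29% of all genes. Of the same markers 0 were called over AT2 cells, with a median log2 difference from AT2 of -0.191. Only 1 (4.76%, against 6.22% of all genes), Lyz2, was above the range. Lyz2, which encodes lysozyme, read 254508 and 262419 in BASC, while AT2 samples had 178232 and 179734 and Club samples 2179 and 990. BASC were thus 1.42-fold over the highest AT2 sample at the nearer value, and the difference from AT2 was not called (adjusted p = 0.539). Lyz1, its paralogue, was inside the range with 3947 and 3524 in BASC against 10035 and 16981 in AT2, and reads of both genes may be split between near-identical sequences. Slc26a9, an epithelial chloride transporter, read 5722 and 5913 in BASC, with 5682 and 5453 for AT2 and 619 and 687 for Club cells, so it was above by a ratio of 1.01 and was not called over AT2 (adjusted p = 0.873).

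Signalling receptors lay on both sides of the range. Fgfr2, the receptor through which fibroblast growth factors act on lung epithelium, read 21888 and 18913 in BASC against 15062 and 14848 in the AT2 samples and 4828 and 5475 in Club cells. It was 1.21 ± 0.10 above the midpoint (log2, SE, limma adjusted p = 0.00246), with a ratio of 1.26 over AT2 at the nearest values. Spred1, a feedback inhibitor of the same pathway, was the other of 14 FGF genes above the range (14.3%, against 6.22% of all genes). Fzd5, a Wnt receptor that is not on the Wnt list, read 1539 and 1766 in BASC, while AT2 samples had 1306 and 1274 and Club samples 657 and 630. The Wnt list had 0 of 29 above and 2 below (6.9%, near the 6.55% of all genes), namely Fzd6 and the stem cell marker Lgr5. Lgr5 read 4 and 6 in BASC, with 18 and 56 for AT2 and 40 and 16 for Club cells. Egfr, the epidermal growth factor receptor, was below with 87 and 71 in BASC and a lowest other value of 102. In the BMP and TGF-beta list 3 of 22 (13.6%) were above and 0 below, against 6.22% and 6.55% of all genes. Of these 3, Id1 had the widest gap with 371 and 443 in BASC against a highest other value of 268.

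Secreted proteins and transporters were among the genes with wide gaps at levels over 100 normalised counts. Serpind1, the thrombin inhibitor heparin cofactor II, read 468 and 375 in BASC against 70 and 52 in the AT2 samples and 95 and 60 in Club cells. The amino acid transporter Slc38a4 read 1605 and 1623 in BASC, while AT2 samples had 355 and 667 and Club samples 478 and 660. Both were called against the midpoint, by 2.62 ± 0.39 and 1.62 ± 0.27 (log2, SE), with limma adjusted p-values of 0.025 and 0.0368. Against AT2 alone they reached adjusted p-values of 0.0574 and 0.0779. The growth factor Igf2 read 184 and 296 in BASC, with 77 and 88 for AT2 and 89 and 67 for Club cells, and the transcription factor Tox read 129 and 100, 27 and 7, and 29 and 23 in the same order. Neither was called.

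All 26 called genes below the range were called under Club cells, and in 11 of them Club cells were also called over AT2. Ano1, a calcium-activated chloride channel of airway secretory cells, read 197 and 169 in BASC against 325 and 293 in the AT2 samples and 2634 and 2215 in Club cells. The adaptor gene Card10, which links receptors to NF-kB, read 42 and 119 in BASC, while AT2 samples had 316 and 410 and Club samples 1016 and 747. Both were called against the midpoint, at -2.24 ± 0.18 and -2.97 ± 0.42 (log2, SE) with limma adjusted p-values of 0.00246 and 0.0216.

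In 9 of the 26, both BASC samples were listed at 0. Pdpn, the podoplanin gene that marks alveolar type 1 cells, read 0 and 0 in BASC, with 6 and 17 for AT2 and 561 and 457 for Club cells. Lif, a cytokine of the interleukin-6 family, read 0 and 0 in BASC against 10 and 10 in the AT2 samples and 254 and 117 in Club cells. Ntn1, the guidance protein netrin-1, read 5 and 1 in BASC, while AT2 samples had 78 and 175 and Club samples 211 and 117. A value of 3 reads came to 4.02 and 2.75 normalised counts in the BASC samples, so a gene at 0 there could lie up to these levels from counting error alone. Pdpn was the sole alveolar type 1 marker of 16 below the range, and Gprc5a was the sole one above. Each is 6.25% of the list, near the 6.55% and 6.22% of all genes.

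Cell adhesion genes below the range included Jup, which encodes plakoglobin of desmosomes and adherens junctions. It read 1841 and 1496 in BASC, with 2654 and 2492 for AT2 and 3374 and 3331 for Club cells (limma adjusted p = 0.0243). Epcam, a surface protein of epithelia that is on the list of proposed BASC markers, read 1620 and 1604 in BASC against 1995 and 1861 in the AT2 samples and 1890 and 1971 in Club cells and was not called (adjusted p = 0.324). The other 15 proposed BASC markers tested were inside the range. Endocytosis genes among the called members were Lrp1, a scavenger receptor, and Cltb, a clathrin light chain, which read 693 and 690 in BASC, while AT2 samples had 864 and 732 and Club samples 1900 and 2028.

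Of 12 MHC class I presentation genes, 3 (25.0%) were below and 1 (8.33%) was above, against 6.55% and 6.22% of all genes. B2m, the light chain of MHC class I, read 719 and 544 in BASC, with 1184 and 1365 for AT2 and 847 and 951 for Club cells, and Psmb9, a subunit of the immunoproteasome, read 19 and 8, 89 and 50, and 34 and 67 in the same order. Neither was called (adjusted p = 0.0979 and 0.261, limma). Of 21 respiratory chain genes, 2 (9.52%, against 6.55% of all genes) were below and 1 above, and none of either list was called lower than the midpoint, with 2 of each at an unadjusted p under 0.05. Cox5a, a subunit of cytochrome c oxidase, read 74 and 94 in BASC against 183 and 233 in the AT2 samples and 193 and 246 in Club cells (adjusted p = 0.126).

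Other programmes had few or no members outside the range. The Club secretory markers had 0 of 20 outside, the xenobiotic metabolism genes 0 of 26 and the cholesterol genes 0 of 19. Of all genes, 12.8% were outside on either side. Cell cycle genes were above in 3 of 25 (12%) and below in 2 (8%), against 6.22% and 6.55% of all genes. Birc5 and Cdk1, which act in mitosis, were above at 20 and 16 and at 19 and 27 counts in BASC; both passed the filter only through BASC and so had to be above. Of the others, the replication helicase genes Mcm3 and Mcm5 were below, and none was called. Lung epithelial transcription factors had 2 of 31 (6.45%) above, Foxa2 and Foxp4, and 1 (3.23%) below, Foxp2, none of them called.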

How the data were processed

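RNA was measured in 6 samples, 2 each of BASC, AT2 and Club cells. The submitters' processing notes name FastQC, the aligner STAR 2.4.0a, the counter featureCounts 1.4.5-p1 of Subread, and the build mm10 (GRCm38). The authors deposited 1 signal value per gene and sample, here called a normalised count, which from the values is a gene-level read count scaled by 1 factor per sample and rounded. How the counts were normalised, counted by strand and annotated is not given in the sources used here, so overlapping and antisense genes may share reads. Estimated reads are column totals divided by the spacing of low values, and whole reads could not be recovered, so count models were not run. The table has no gene whose highest value is under 7.

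Values were fitted as log2(value + 1) in limma 3.58.1 (R 4.3.3; eBayes with a trend after lmFit and contrasts.fit) over all 6 samples, for the 17721 genes that reached 10 in 2 or more samples. Residual degrees of freedom were 3 and prior ones 4.20. All tests were 2-sided, with Benjamini-Hochberg adjustment over all genes tested, and an adjusted p under 0.05 was a call; every adjusted p in the text is of this kind. Log2 changes of low genes are understated by the pseudocount. The members and the 49 gene lists (816 genes, 726 tested) were chosen with earlier results of these data known. Named genes were the reporter genes, all genes called beyond both populations, the 12 widest gaps per direction at a level of 100, the 8 largest called differences per direction, up to 3 outside and 2 called members per list and direction, and genes at the edge of the range. Mylk, Thbs1, Il1r1, Cd83, Fzd5, Cltb, Lrp1 and the members of the immediate-early, NF-kB, splicing and cytoskeleton lists beyond that number were chosen after their values were seen. So were Vstm2b, Grin2b, 9530003J23Rik and Map4k1. Coordinates of genes are those deposited. The alternatives were other pseudocounts, filters, scalings, estimates of the spread, a replicate block and leaving out each sample.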

Additional observations from a re-analysis of the deposited data

How the results depend on the processing

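With 2 samples per population, the calls depended on the samples of all 3 populations and on the model of the spread. Of the 77 called members, 0 stayed called without either BASC sample, 21 and 23 without AT2 replicate 1 and 2, and 34 without a trend. Leaving out 1 sample gave between 4 and 254 genes higher than the midpoint and between 0 and 24 lower, against 229 and 57. Between 1320 and 3145 genes were then above the range and between 1427 and 3145 below, where 1 value fewer had to clear it or set it. Between 0 and 47 of those above and between 0 and 10 of those below were called, between 0 and 6 genes were higher than both populations and 0 lower, and between 0 and 3 immediate-early genes were called. Without a trend in the spread, 128 genes were higher and 248 lower than the midpoint, 54 genes below the range were called, 19 were higher and 15 lower than both populations, and 0 immediate-early genes were called. Plk2, Fam102b, Egr1 and Trappc13 lost their call against both there. With a filter of at least 50, 133 genes were lower, 52 below the range were called, 9 and 6 were beyond both populations and 5 immediate-early genes were called. Robust estimation gave 8 and 3 genes beyond both populations and 5 immediate-early calls, a pseudocount of 5 gave 8 higher and 4 immediate-early calls, and quantile and median-ratio scaling gave 3 and 2 immediate-early calls. Without a filter 0 genes were lower than both, because Trappc13 reached an adjusted p of 0.0563 against AT2 (limma). A margin of 2-fold left 125 genes above and 216 below the range. The cause of these changes was not tested.

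Samples with the same replicate number deviated together only weakly. Correlations of their deviations across genes were between 0.006 and 0.0118 over all genes. Over genes with a mean of at least 100 they were between 0.057 and 0.0917, all under 0.1. Weak correlations cannot decide whether the numbers pair the samples, so a pairing stays possible. With a replicate block, 231 genes were higher and 49 lower than the midpoint, 4 immediate-early genes were called, and 58 of the 77 called members kept their call. The block ended the call of Trappc13 against AT2 (adjusted p = 0.0589, limma).

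Of 1443 values of 145 named genes under alternatives other than leaving out a sample, 1388 kept direction and call, 34 lost a call, 21 gained one and 0 changed direction. Of 852 values with 1 sample left out, 0 changed direction. A gene outside the range cannot change direction when 1 sample is left out, and many named genes were chosen as outside it. The 0 is therefore in part fixed by the choice of genes. Replicates differed by a median of 0.17 (BASC), 0.187 (AT2) and 0.132 (Club) (absolute log2 difference, genes with a mean of at least 1000). Over all genes tested the medians were 0.542, 0.535 and 0.354 in the same order. These exceed the median gaps of 0.228 above and 0.262 below the range. Gaps under the replicate difference at their level of expression are within the spread between replicates.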

Other observations

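Non-coding features were unevenly placed. Of 203 small nucleolar RNA genes tested, 23 (11.3%) were above the range and 3 below, against 6.22% and 6.55% of all genes. Protein-coding genes made up 72.6% of the genes above and 80.6% of those below, against 75.4% of those tested. Neat1, a nuclear long non-coding RNA that builds paraspeckles, was below the range with 25530 and 20735 in BASC against 42002 and 30604 in the AT2 samples and 33649 and 26157 in Club cells, and was not called (adjusted p = 0.229, limma). Among genes with low values, Olfm4, a marker of intestinal stem cells, read 56 and 49 in BASC and 0 in the other 4 samples, and it was chosen after its values were seen. Olfm4 reached the filter only in the BASC samples, so it had to be above the range. In the Notch list the ligand gene Dll1 was above the range with 54 and 143 in BASC, while AT2 samples had 8 and 30 and Club samples 4 and 7, without a call (adjusted p = 0.194).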
